A study of Mus musculus with 6 samples.

Results

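The laminins, the collagen IV chains, the nidogens, perlecan, agrin and 19 integrin chains were examined as 1 group of 39 genes, out of 54532 in the deposited count table. They were chosen by gene family, with earlier results of the same comparison known, so their fold changes are given as descriptions and no test of the group as a whole was made. The RNA came from gastrocnemius, a calf muscle, of C57BL/6J mice that were 3 months old and had received 0.2% doxycycline in their water since the age of 4 weeks. The 3 libraries labelled transgenic (MP1, MP2 and MP3) have the genotype Mck cre; Tg Glut1-Hk2-Pfkfb3, and the 3 libraries labelled control (Ctrl1, Ctrl2 and Ctrl3) have the genotype Mck cre, so both groups carry the Cre and received the drug. Mck is muscle creatine kinase, whose promoter is active in muscle fibres, and the transgene is named for a glucose carrier and enzymes of glycolysis. Whether each library is a different animal is not stated, and the p-values then capture no more than library-to-library spread, which may be technical.

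A basement membrane is the thin sheet of matrix that wraps each muscle fibre and lines capillaries and nerves. Laminins, each a trimer of an alpha, a beta and a gamma chain, assemble on the cell surface, collagen IV forms a covalently linked network, and nidogens and the heparan sulfate proteoglycans perlecan and agrin join the networks. Integrins are heterodimers of an alpha and a beta chain that bind these proteins and link them to the cytoskeleton. In muscle integrin alpha7 is a receptor at the fibre surface for laminins with the alpha2 chain, and loss of either chain causes congenital muscle disease in humans.

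The genes named in the transgene did not pass the test between the groups. Pfkfb3 had 120, 476 and 542 CPM (counts scaled to library size) in MP1, MP2 and MP3, and 579, 1096 and 1585 CPM in Ctrl1, Ctrl2 and Ctrl3, which goes against the label (log2 ratio -1.52, adjusted p = 0.196). Slc2a1, the gene of GLUT1, was at -0.63 (adjusted p = 0.29) and Hk2 at 0.44 (adjusted p = 0.381). For Hk2 MP1 alone was high, with 341 CPM against 156 to 187 CPM in the other libraries. For Slc2a1 Ctrl2 was the highest, at 23.3 CPM against 8.05 to 13.5 CPM in the other libraries. The coding sequences in the transgene are not stated here, and its reads need not count at these mouse genes, so the values cannot settle the labels. Directions below are therefore those of the labels, MP against Ctrl. Libraries held 19546456 to 24665024 counts. Ctrl1 correlated least with the rest (0.947 to 0.961) and had the highest sums of lymphocyte genes, so results that rest on it are given with and without it. Ctrl1 also had the lowest Gapdh, a gene of glycolysis, at 16.7 CPM against 231 to 682 CPM in the other libraries. The 10 myofibre genes summed to 107725, 126966 and 118965 CPM in MP1, MP2 and MP3, and 105879.9, 147165 and 155845 CPM in Ctrl1, Ctrl2 and Ctrl3. So Ctrl2 and Ctrl3 lay above all MP libraries, and Ctrl1 lay below them. Of these genes 9 had negative and 1 a positive log2 ratio, and 0 passed the test. Their median was -0.26 with all libraries and -0.36 without Ctrl1. No gene of the list was at 0 in all libraries. In bulk muscle, fewer cells of a type and less RNA per cell cannot be told apart.

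Of the 39 genes, 38 had enough counts for the test. The exception was Lama1, a laminin alpha chain typical of embryonic tissue, with 0, 2 and 0 counts in MP1, MP2 and MP3 and 1, 0 and 0 in Ctrl1, Ctrl2 and Ctrl3. By edgeR's quasi-likelihood test, 6 of the 38 rose in the libraries labelled transgenic at an adjusted p under 0.05, and of all genes tested 0.788% did. These were the laminin chains Lama2 and Lamc1, the perlecan gene Hspg2, and the integrin alpha chains Itga3, Itga7 and Itgav. None fell, where 0.508% of all genes did, while 20 were higher and 2 lower at an unadjusted p under 0.05, as were 10.5% and 10.3% of all genes. DESeq2 called 15 higher and 1 lower, and 3.59% and 2.94% of all genes. For limma-voom these were 4 and 0, and 0.608% and 0.354% of all genes. The log2 fold change was positive in 33 of 38, or 86.8%, with a median of 0.63, and positive in 46.6% of all genes tested, with a median of -0.03. All 3 MP libraries lay above all 3 Ctrl libraries in 20 of the 38, as in 13.8% of all genes, and below them in 1, as in 13.6% of all genes. Because the genes were chosen with this contrast known, nothing is read from these counts. The 19 matrix genes tested all had positive values, with a median of 0.77, whereas among the 19 integrins 14 were positive, with a median of 0.40. Without Ctrl1 these medians were 0.85 and 0.60, and Itga4 and Itgb3 were then positive, at 0.69 and 0.08.

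**Figure D1:**
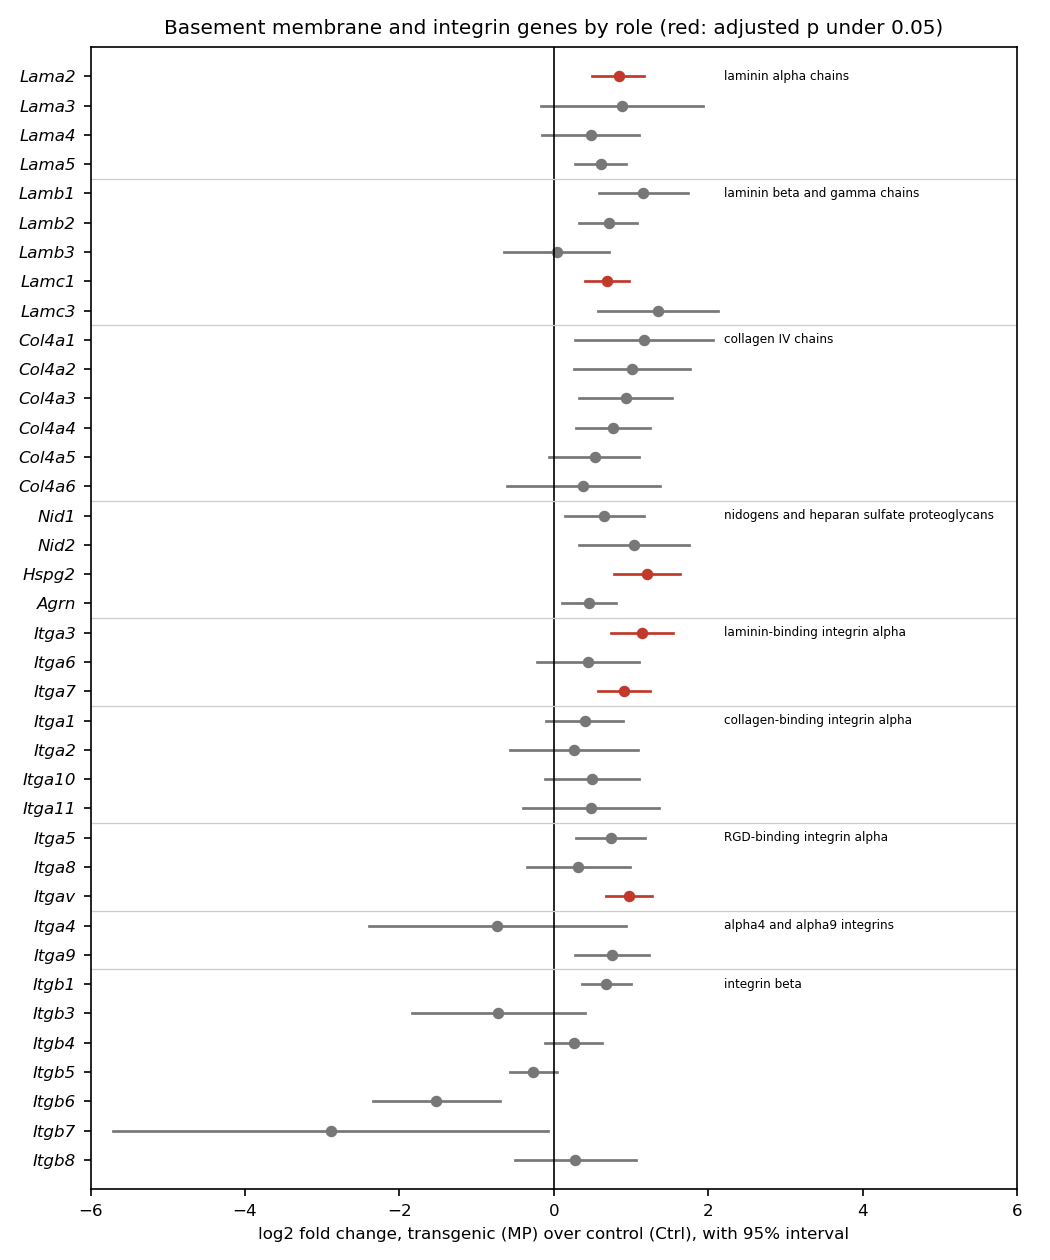
Log2 fold change of each tested gene (points) with its 95% interval (lines), libraries labelled transgenic (MP) over libraries labelled control (Ctrl), grouped by role. The 6 red points passed an adjusted p of 0.05, all to the right of 0, and the lowest point is Itgb7 at -2.89 with an interval from -5.71 to -0.07.

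The calls moved with single libraries. Without Ctrl1 there were 15 genes higher, where 6.08% of all genes were, and 1 lower, where 6.99% were. The 15 held the same 6 plus Lama3, Lama5, Lamb1, Lamb2, Col4a3, Col4a4, Nid1, Itga9 and Itgb1, and the 1 lower was Itgb6. Without any 1 of the other 5 libraries none of the 38 passed, with 18 to 21 higher and 1 to 2 lower at an unadjusted p under 0.05. Over all 14973 genes, these 5 fits called 0 to 46 higher and 0 to 8 lower, with 1106 to 1290 higher and 928 to 1172 lower unadjusted. The fold changes of the 6 genes moved little in these fits, and Hspg2, the most variable, stayed between 1.03 and 1.33.

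**Figure D2:**
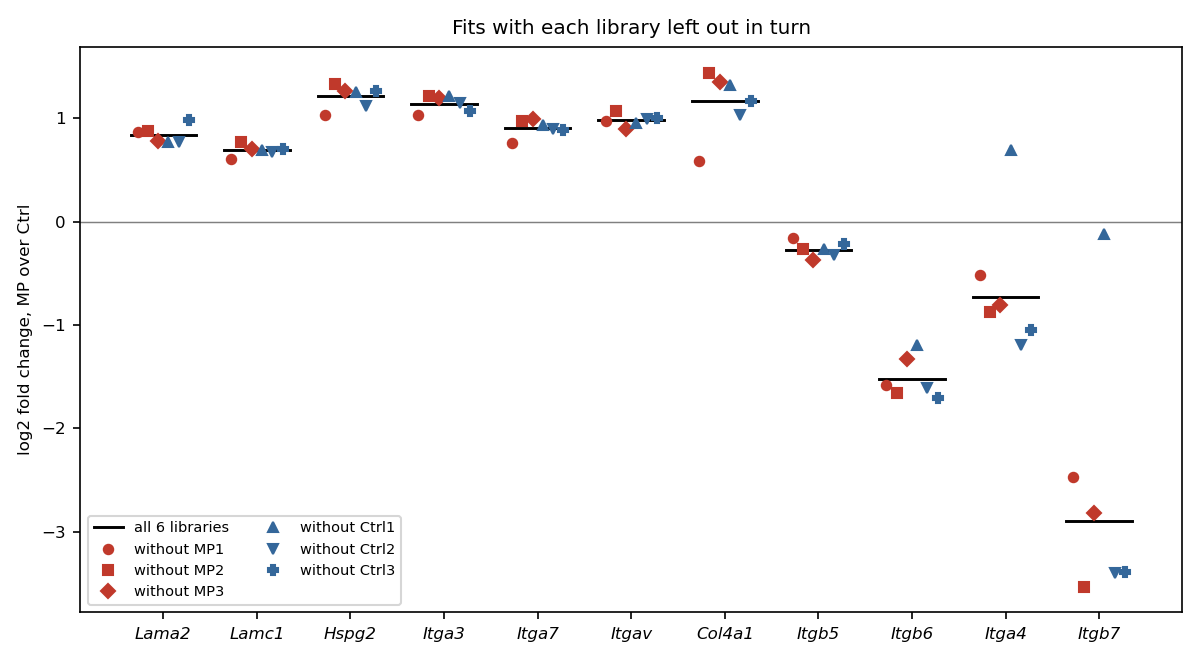
Log2 fold change, MP over Ctrl, of 11 genes with all 6 libraries (black lines) and with each library left out in turn (symbols; red, an MP library left out; blue, a Ctrl library left out). The genes past the threshold stay close to their line, Col4a1 drops to 0.59 without MP1, and without Ctrl1 Itga4 moves to 0.69 and Itgb7 to -0.12.

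Levels were compared between genes per length, as deposited FPKM, a fragment count scaled by gene length and library size. Among laminin chains Lamb2, the beta2 chain, was the highest at 40.4 ± 6.9 FPKM in MP libraries and 24.8 ± 2.96 FPKM in Ctrl libraries (SD, n = 3 each, as for all means below). It was followed by Lamc1, the gamma1 chain shared by most laminins, at 17.2 and 10.7 FPKM. Lama5, Lama2 and Lamb1 came next, at 6.49, 5.12 and 5.53 FPKM in MP libraries and 4.26, 2.86 and 2.47 FPKM in Ctrl libraries, and Lama2 and Lamb1 overlapped within both groups. The order of the alpha chains turned on the length used. The deposited length of Lama2 is 16338 bases, 1.7 times its longest coding transcript of 9614 bases, while for Lama5 both are 11388. Per longest coding transcript, a setting chosen after seeing the data, Lama2 was at 8.7 ± 0.707 FPKM in MP libraries and 4.87 ± 0.834 in Ctrl libraries, and Lama5 at 6.49 ± 0.855 and 4.26 ± 0.389. So Lama2 was then the highest alpha chain, although in the Ctrl libraries the margin was smaller than the SD of Lama2. The deposited length of Lamb1 is 1.71 times its longest coding transcript. Per that transcript Lamb1 was at 9.48 ± 1.99 FPKM in MP libraries and 4.23 ± 1.29 in Ctrl libraries.

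**Figure D3:**
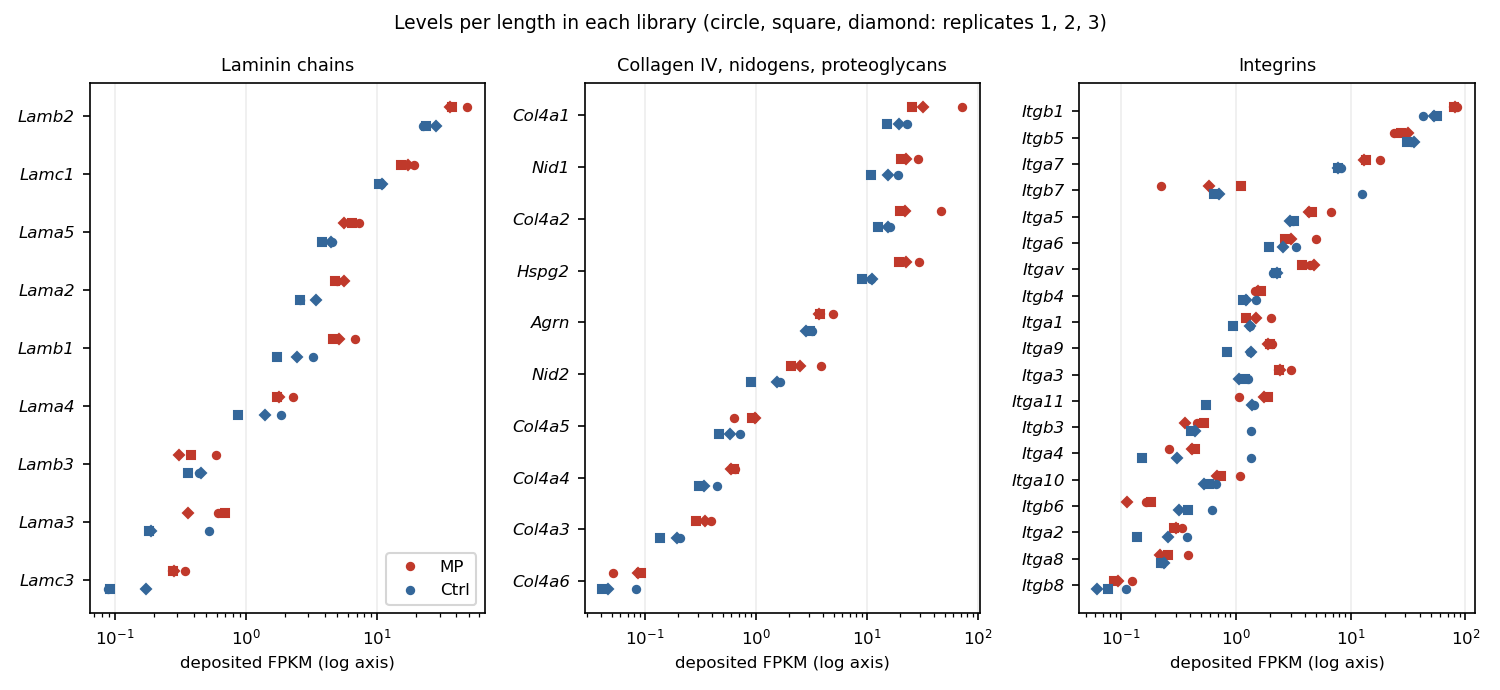
Deposited FPKM on a log axis for each gene in each library, MP in red above Ctrl in blue. Lamb2 leads the laminins, Col4a1, Nid1, Col4a2 and Hspg2 the other matrix genes and Itgb1 the integrins, while Itgb7 and Itga4 have 1 Ctrl library far to the right of the other 2.

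Laminin alpha chains set where a trimer is used. Lama2 (ENSMUSG00000019899, GRCm38 chromosome 10, 26980036 to 27619758, minus strand), the alpha2 chain of the muscle fibre, had 82.1, 78.4 and 90.8 CPM in MP1, MP2 and MP3, and 42.3, 42.4 and 55.9 CPM in Ctrl1, Ctrl2 and Ctrl3. The groups did not overlap, and Ctrl3 was the highest of the Ctrl libraries. Lama2 rose, with a log2 fold change of 0.84 ± 0.14 (SE, as for all fold changes below; 95% interval 0.50 to 1.17, edgeR adjusted p = 0.0463). Without any 1 library other than Ctrl1 the adjusted p was 0.108 to 0.195. Lama5, the alpha5 chain of mature vessels and of the synapse, had 84.5, 74.1 and 63.7 CPM in the MP libraries and 51.8, 43.5 and 50.5 CPM in the Ctrl libraries. These also stood apart, by a log2 fold change of 0.61 ± 0.14, without passing the test (adjusted p = 0.0845, and 0.0333 without Ctrl1). Lama4, the alpha4 chain of endothelium and nerve, overlapped between groups and was at 0.48 ± 0.27 (adjusted p = 0.347). Lama3, the alpha3 chain of epithelia, had 6.65, 7.51 and 3.88 CPM in the MP libraries and 5.63, 1.98 and 2.03 CPM in the Ctrl libraries. Ctrl1 lay inside the MP range, and the log2 fold change was 0.88 (adjusted p = 0.308) with it and 1.58 (adjusted p = 0.0272) without it.

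Among the beta and gamma chains, Lamc1 (ENSMUSG00000026478, chromosome 1, 153218922 to 153332786, minus strand) had 161, 126 and 140 CPM in MP1, MP2 and MP3, and 89, 86.2 and 89.8 CPM in Ctrl1, Ctrl2 and Ctrl3. The Ctrl libraries were nearly equal, with an SD of 1.9 CPM, and all MP libraries lay above them. Lamc1 rose by 0.69 ± 0.12 on the log2 scale (interval 0.40 to 0.97, edgeR adjusted p = 0.0496, and 0.105 to 0.199 without any 1 library other than Ctrl1). Lamb1, the beta1 chain, had 68.4, 45.7 and 50.7 CPM in the MP libraries and 32.2, 17.2 and 24.2 CPM in the Ctrl libraries. The groups were separate but each was spread, and the log2 fold change, 1.16 ± 0.25, did not pass (adjusted p = 0.0752, and 0.0158 without Ctrl1). Lamb2 had 297, 225 and 216 CPM in the MP libraries and 138, 144 and 171 CPM in the Ctrl libraries, or 0.71 ± 0.16 on the log2 scale (adjusted p = 0.0845, and 0.0475 without Ctrl1). Lamc3, the gamma3 chain, was at 1.70 to 2.11 CPM in MP libraries and 0.542 to 1.06 CPM in Ctrl libraries (1.35 ± 0.33, adjusted p = 0.094). Lamb3, an epithelial beta chain, was at 0.04 ± 0.30, and its value is uncertain because it overlaps G0s2 and Hsd11b1, which carry more reads. Shares of summed FPKM give the mix of chains. They use deposited lengths, which are 1.71 times the longest coding transcript for Lamb1 and 1.08 times for Lamb2, so their size turns on the length used. Lamb2 made up 87.2% ± 0.814 of the beta chains in MP libraries and 89.5% ± 3.08 in Ctrl libraries, and Lamc1 made up 98.3% ± 0.0833 of Lamc1 and Lamc3 together in MP libraries and 98.9% ± 0.42 in Ctrl libraries. The beta2 shares overlapped between the groups, while those of Lamc1, of Lamc3 (1.73% ± 0.0833 in MP libraries and 1.09% ± 0.42 in Ctrl libraries) and of Lamb3 among the beta chains (0.909% ± 0.156 and 1.52% ± 0.137) did not. The Lamc1 and Lamc3 shares are complements and so a single result, and Lamc3 was at 1.64% in MP3 and 1.58% in Ctrl3. The share of Lamb3 is as uncertain as its value, whose log2 fold change was near 0.

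Collagen IV is made as trimers, with the alpha1 and alpha2 chains in nearly all basement membranes and the other chains in specialised ones. Col4a1 (ENSMUSG00000031502, chromosome 8, 11198423 to 11312826, minus strand) had 538, 189 and 238 CPM in MP1, MP2 and MP3, and 171, 114 and 144 CPM in Ctrl1, Ctrl2 and Ctrl3. Col4a2 (ENSMUSG00000031503, chromosome 8, 11312805 to 11449287, plus strand) had 313, 132 and 146 CPM in the MP libraries and 107, 83.3 and 102 CPM in the Ctrl libraries. For both genes MP1 was far above the other libraries, and MP2 was the nearest to the Ctrl libraries. Neither passed the test, with log2 fold changes of 1.17 ± 0.38 for Col4a1 (interval 0.28 to 2.06, adjusted p = 0.157) and 1.01 ± 0.32 for Col4a2 (adjusted p = 0.152). Without MP1 they were 0.59 (adjusted p = 0.243) and 0.52 (adjusted p = 0.19). The ratio of Col4a1 to Col4a2 in FPKM nonetheless stayed narrow, at 1.53, 1.27 and 1.45 in the MP libraries and 1.42, 1.21 and 1.25 in the Ctrl libraries, which overlap.

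The less abundant Col4a4 and Col4a3 had no such leading library. Col4a4 had 6.90, 6.74 and 6.25 CPM in MP1, MP2 and MP3, and 4.75, 3.26 and 3.60 CPM in Ctrl1, Ctrl2 and Ctrl3 (0.77 ± 0.20, adjusted p = 0.107, and 0.0229 without Ctrl1). Col4a3 had 3.97, 2.86 and 3.44 CPM in the MP libraries and 2.09, 1.37 and 1.94 CPM in the Ctrl libraries (0.93 ± 0.26, adjusted p = 0.117, and 0.0467 without Ctrl1). In humans these chains are best known from the kidney glomerulus, where their loss causes Alport syndrome. Col4a5 and Col4a6, on the X chromosome, overlapped between groups at 0.53 ± 0.25 (adjusted p = 0.284) and 0.38 ± 0.43 (adjusted p = 0.64). The 6 collagen IV genes lie in 3 head-to-head pairs. The annotated starts of Col4a1 and Col4a2 overlap by 22 bases, those of Col4a4 and Col4a3 lie 71 bases apart, and those of Col4a6 and Col4a5 lie 1308 bases apart. The stretch between Col4a4 and Col4a3 is shown because the annotated starts of both genes border it. It is chr1:82586850-82586920 on GRCm38.p6 from RefSeq, read on the minus strand, with capitals reserved for a GC box (GGGCGG) or a CCAAT box on either strand, of which it holds none.
Col4a4 to Col4a3: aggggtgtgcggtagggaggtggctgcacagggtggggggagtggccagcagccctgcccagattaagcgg

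Hspg2 encodes perlecan, the large heparan sulfate proteoglycan that tethers growth factors and collagen IV. Hspg2 (ENSMUSG00000028763, chromosome 4, 137468769 to 137570630, plus strand) had 428, 280 and 317 CPM in MP1, MP2 and MP3, and 156, 129 and 158 CPM in Ctrl1, Ctrl2 and Ctrl3. The lowest MP library was well above the highest Ctrl library, and MP1 was again the highest. Perlecan mRNA rose 2.31-fold, a log2 fold change of 1.21 ± 0.19 (interval 0.78 to 1.64, edgeR adjusted p = 0.0362, and 0.0576 to 0.156 without any 1 library other than Ctrl1). Its FPKM ratio to Lamc1 was 1.54, 1.29 and 1.3 in the MP libraries and 1.01, 0.865 and 1.02 in the Ctrl libraries (exact permutation p = 0.1, two-sided, the smallest that 3 against 3 allows). Nid1, the nidogen that links laminin to collagen IV, had 201, 142 and 156 CPM in the MP libraries and 132, 76.1 and 108 CPM in the Ctrl libraries (0.65 ± 0.22, adjusted p = 0.167, and 0.0384 without Ctrl1). Nid2, its less abundant relative, had 20, 10.8 and 12.9 CPM in the MP libraries and 8.59, 4.63 and 8.02 CPM in the Ctrl libraries (1.04 ± 0.31, adjusted p = 0.13), and is uncertain because it overlaps the more highly counted Rtraf. Agrn, the proteoglycan that clusters acetylcholine receptors at the synapse, was at 0.45 ± 0.15 (adjusted p = 0.157). The last 3 genes stood apart between the groups without passing.

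**Figure D4:**
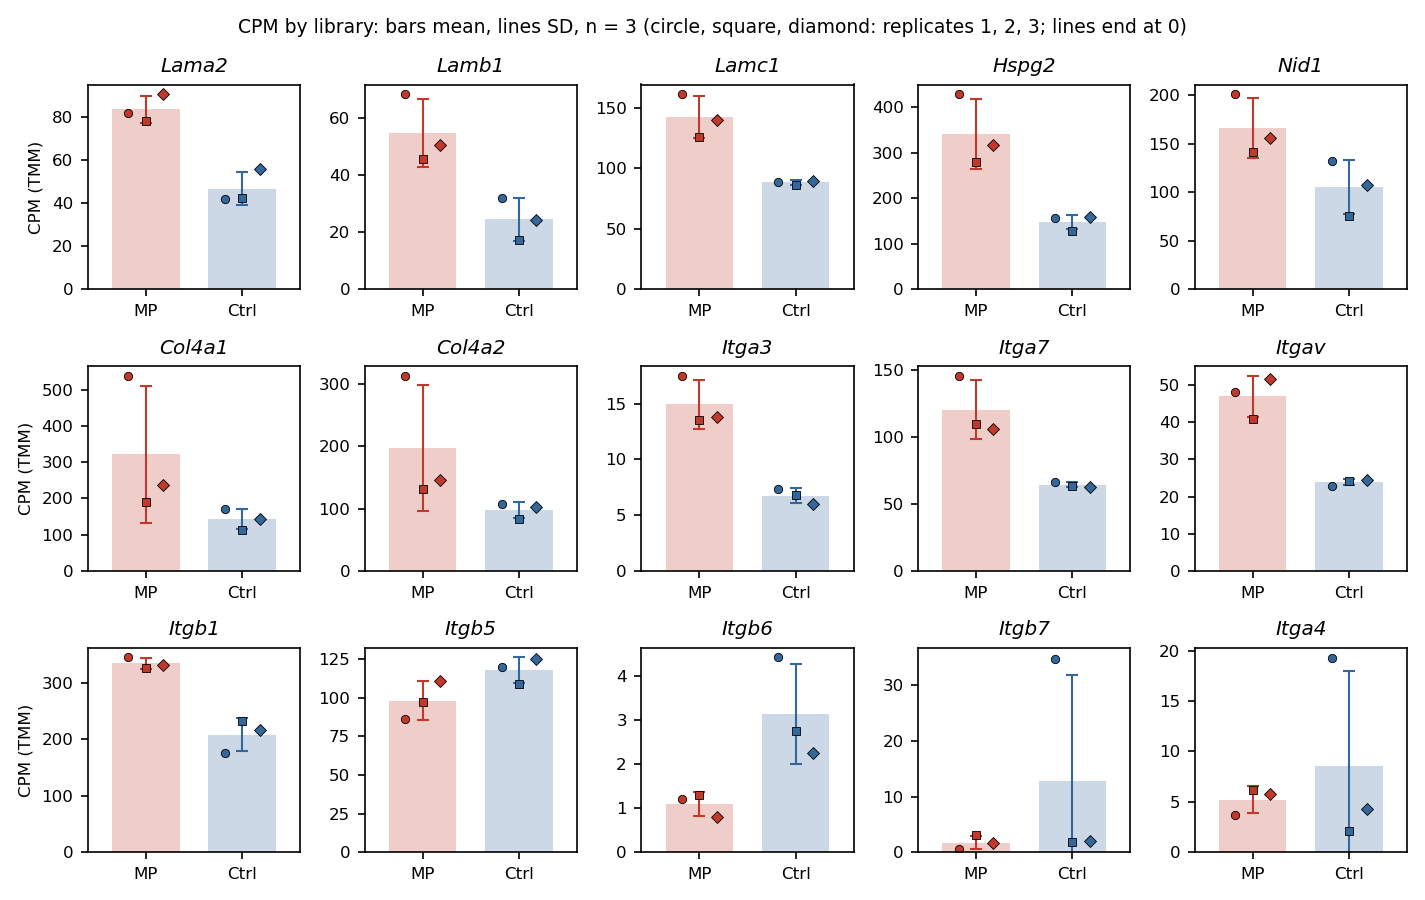
CPM of 15 genes by library (symbols), with the mean (bars) and SD (lines) of the 3 libraries of each group, MP left of Ctrl. Lower ends of the SD lines stop at 0 where the SD exceeds the mean, as for Itgb7 and Itga4 in Ctrl, where 1 library is far above the other 2. MP1 is the highest library for Col4a1 and Col4a2, at 538 and 313 CPM.

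The laminin-binding integrin alpha chains carried 2 of the calls. Itga7 (ENSMUSG00000025348, chromosome 10, 128933818 to 128958282, plus strand), the alpha7 chain of the fibre and its junction with tendon, had 146, 110 and 106 CPM in MP1, MP2 and MP3, and 66.7, 63.6 and 63.0 CPM in Ctrl1, Ctrl2 and Ctrl3. It rose by 0.91 ± 0.15 on the log2 scale (interval 0.57 to 1.25, edgeR adjusted p = 0.0406, and 0.0576 to 0.178 without any 1 library other than Ctrl1). Satellite cells, the muscle stem cells, also express Itga7, and of the 9 genes of a satellite cell list, which does not hold it, 7 were positive with a median of 0.82. Calcr (2.10 ± 0.31, adjusted p = 0.0324) and Fgfr4 (1.32 ± 0.23, adjusted p = 0.0463) rose in edgeR. At an unadjusted p under 0.05 in edgeR 5 of the 9 were higher and 0 lower, where 10.5% and 10.3% of all genes were. DESeq2 called 4 higher and 0 lower, where 3.59% and 2.94% of all genes were, and without Ctrl1 the median was 1.20. The 9 genes summed to 132 to 152 CPM in MP libraries and 102 to 165 CPM in Ctrl libraries, which overlapped. Their part in the value of Itga7 was not tested. Itga3 (ENSMUSG00000001507, chromosome 11, 95044474 to 95076801, minus strand), which also binds laminin, had 17.5, 13.5 and 13.8 CPM in the MP libraries and 7.38, 6.85 and 6.04 CPM in the Ctrl libraries. The groups stood apart by more than the range within either, and Itga3 rose by 1.14 ± 0.17 (interval 0.74 to 1.54, edgeR adjusted p = 0.0354, and 0.0826 to 0.159 without any 1 library other than Ctrl1). Itga6, the laminin receptor of endothelium and nerve, overlapped between groups at 0.44 ± 0.28 (adjusted p = 0.413). As a share of the summed FPKM of all integrin alpha chains, Itga3 took 6.95% ± 0.102 in MP libraries and 5.32% ± 0.625 in Ctrl libraries, without overlap, and Itga7 39.5% ± 1.25 and 35.8% ± 3.24, with overlap. These shares use deposited lengths, which are 2.01 times the longest coding transcript for Itga7 and 1.17 times for Itga3.

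No collagen-binding alpha chain passed in edgeR or DESeq2, and 0 had an unadjusted p under 0.05. Itga10, known from cartilage, had 5.79, 3.88 and 3.52 CPM in MP1, MP2 and MP3, and 3.55, 3.07 and 2.72 CPM in Ctrl1, Ctrl2 and Ctrl3 (0.50 ± 0.26, adjusted p = 0.318). Itga1, a collagen IV receptor of vessels and fibroblasts, had 37.7, 22.9 and 27.9 CPM in the MP libraries and 24.9, 17.8 and 24.4 CPM in the Ctrl libraries (0.40 ± 0.22, adjusted p = 0.333), and is uncertain because it overlaps Pelo. Itga2, a collagen receptor of platelets and epithelia, was at 0.26 ± 0.36, and Itga11, a fibroblast receptor for fibrillar collagen, at 0.48 ± 0.38. In all 4 genes the groups overlapped.

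The alpha chains that bind the arginine-glycine-aspartate motif include the fibronectin and vitronectin receptors. Itgav (ENSMUSG00000027087, chromosome 2, 83724397 to 83806916, plus strand), the alphav chain, which can activate latent TGF-beta with several partners, had 48.3, 41.0 and 51.8 CPM in MP1, MP2 and MP3, and 22.9, 24.3 and 24.6 CPM in Ctrl1, Ctrl2 and Ctrl3. Here MP3 and not MP1 was the highest library, and the Ctrl libraries were nearly equal. Itgav rose 1.97-fold, with the smallest adjusted p of the 38 genes in edgeR (0.98 ± 0.13, interval 0.68 to 1.27, adjusted p = 0.0236, and 0.0616 to 0.138 without any 1 library other than Ctrl1). Itga5, the alpha5 fibronectin receptor chain, had 33.4, 22.6 and 21.2 CPM in the MP libraries and 15.8, 15.9 and 14.7 CPM in the Ctrl libraries (0.74 ± 0.19, adjusted p = 0.102). Its groups were separate, whereas those of Itga8, a nephronectin receptor chain, overlapped (0.32 ± 0.29, adjusted p = 0.551). Itga9, a receptor for tenascin and other ligands, had 16.1, 15.3 and 14.5 CPM in the MP libraries and 10.3, 6.47 and 10.4 CPM in the Ctrl libraries (0.75 ± 0.20, adjusted p = 0.11, and 0.0411 without Ctrl1).

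The beta chains, which alpha chains need as partners, had values of both signs and 0 calls in edgeR, with 1 higher and 2 lower at an unadjusted p under 0.05 and 1 of each in DESeq2. Itgb1, the partner of every laminin- and collagen-binding alpha chain named above, had 345, 326 and 332 CPM in MP1, MP2 and MP3, and 176, 232 and 217 CPM in Ctrl1, Ctrl2 and Ctrl3. The MP libraries were close to each other and all above the Ctrl libraries, of which Ctrl1 was the lowest. The log2 fold change of 0.68 ± 0.14 (interval 0.36 to 1.0) did not pass (adjusted p = 0.0663, and 0.0231 without Ctrl1). Itgb5, a partner of alphav that binds vitronectin, had 86.1, 97.1 and 111 CPM in the MP libraries and 120, 109 and 125 CPM in the Ctrl libraries. MP3 lay above Ctrl2, and the value of -0.27 ± 0.13 did not pass (interval -0.57 to 0.04, adjusted p = 0.29). The ratio of Itgb5 to Itgb1 in FPKM was 0.287, 0.343 and 0.385 in the MP libraries and 0.782, 0.542 and 0.662 in the Ctrl libraries (exact permutation p = 0.1, two-sided). That of Itgav to Itgb5 was 0.186, 0.139 and 0.154 in the MP libraries and 0.0633, 0.0735 and 0.0649 in the Ctrl libraries (exact permutation p = 0.1). Both ratios separated the groups completely, but most of the ratios computed between members overlapped between the groups. That of Itgav to Itgb1 was 0.0532, 0.0478 and 0.0593 in the MP libraries and 0.0495, 0.0398 and 0.043 in the Ctrl libraries. These overlapped (exact permutation p = 0.2). Itgb1 made up 72.9% ± 2.82 of the summed beta chain FPKM in MP libraries and 55.9% ± 8.54 in Ctrl libraries, and Itgb5 24.5% ± 2.69 and 36.3% ± 2.25. The Itgb1 share was 46.4% in Ctrl1, where the beta chain Itgb7 took 13.5%, and 62.9% and 58.3% in Ctrl2 and Ctrl3. In MP libraries it was 70.5% to 76%.

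Itgb6 was the only gene of the 38 with every MP library below every Ctrl library. This epithelial partner of alphav (ENSMUSG00000026971, chromosome 2, 60598292 to 60722643, minus strand) had 1.20, 1.31 and 0.801 CPM in MP1, MP2 and MP3, and 4.42, 2.74 and 2.26 CPM in Ctrl1, Ctrl2 and Ctrl3. Its log2 fold change was -1.52 ± 0.35 (interval -2.34 to -0.70), which did not pass with all libraries (adjusted p = 0.0845) and passed without Ctrl1 (-1.19, adjusted p = 0.0419). So Itgav was positive while its partners Itgb5 and Itgb6 were negative, neither passing with all libraries, and the Itgb5 groups overlapped. Itgb1 and Itgb8 were positive, as Itgav was, and Itgb3 was at -0.72 with all libraries and 0.08 without Ctrl1. Itgb4, the alpha6 partner of epithelia and nerve sheaths, and Itgb8, another alphav partner, overlapped between groups at 0.26 ± 0.16 (adjusted p = 0.387) and 0.28 ± 0.33 (adjusted p = 0.661).

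The negative values of Itgb7, Itga4 and Itgb3 came with 1 library. Itgb7, a lymphocyte beta chain that pairs with alpha4, had 0.620, 3.1 and 1.6 CPM in MP1, MP2 and MP3, and 34.7, 1.80 and 1.98 CPM in Ctrl1, Ctrl2 and Ctrl3. Itga4, the alpha4 chain of leukocytes, had 3.68, 6.20 and 5.77 CPM in the MP libraries and 19.3, 2.13 and 4.33 CPM in the Ctrl libraries, and Itgb3, the beta3 chain of platelets and vessels, 2.77, 3.15 and 2.12 CPM and 8.01, 2.41 and 2.63 CPM. In each of these genes Ctrl1 alone was high. With all libraries the log2 fold changes were -2.89 ± 1.21 for Itgb7 (adjusted p = 0.233), -0.73 ± 0.71 for Itga4 (adjusted p = 0.588) and -0.72 ± 0.48 for Itgb3 (adjusted p = 0.432). Without Ctrl1 they were -0.12 (adjusted p = 0.898), 0.69 (adjusted p = 0.209) and 0.08 (adjusted p = 0.836). In the same library 8 B cell genes summed to 527 CPM, against 6.94 to 56.6 CPM in the MP libraries and 8.13 and 14.6 CPM in Ctrl2 and Ctrl3. The 9 T and NK cell genes summed to 152 CPM there and to at most 6.69 CPM elsewhere, and Itgal, a leukocyte integrin outside the 39 genes, had 26.1 CPM there and at most 1.21 CPM elsewhere. The part of these cells in the values of Itgb7, Itga4 and Itgb3 was not tested beyond leaving out the library.

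The libraries of a group were not alike across the 38 genes. MP1 was the highest library in 25 of them and Ctrl2 the lowest in 21. The median deviation from each gene's mean over 6 libraries, on the scale log2(CPM + 0.5), was 0.51, 0.17 and 0.17 in MP1, MP2 and MP3, and -0.10, -0.52 and -0.27 in Ctrl1, Ctrl2 and Ctrl3. For all genes tested the same medians lay between -0.01 and 0.01. The summed markers of endothelium, of smooth muscle and pericytes and of fibroblasts were also highest in MP1 and lowest in Ctrl2. The 12 endothelial genes, all with positive fold changes, 0 calls in edgeR and DESeq2 and 3 at an unadjusted p under 0.05, summed to 953, 543 and 583 CPM in the MP libraries and 552, 424 and 496 CPM in the Ctrl libraries. The 11 smooth muscle and pericyte genes summed to 635 to 828 CPM in MP libraries and 530 to 660 CPM in Ctrl libraries, with 9 positive, 0 calls in edgeR, 4 higher in DESeq2 and 6 higher at an unadjusted p under 0.05. The 12 fibroblast genes summed to 2954 to 3119 CPM in MP libraries and 1817 to 2842 CPM in Ctrl libraries, with 10 positive, 0 calls in edgeR, 1 higher in DESeq2 and 2 higher unadjusted. The endothelial and the smooth muscle sums overlapped between the groups, and the fibroblast sums did not. No gene of these 3 lists was at 0 in all libraries. The part of these cell types in the members' values was not tested.

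**Figure D5:**
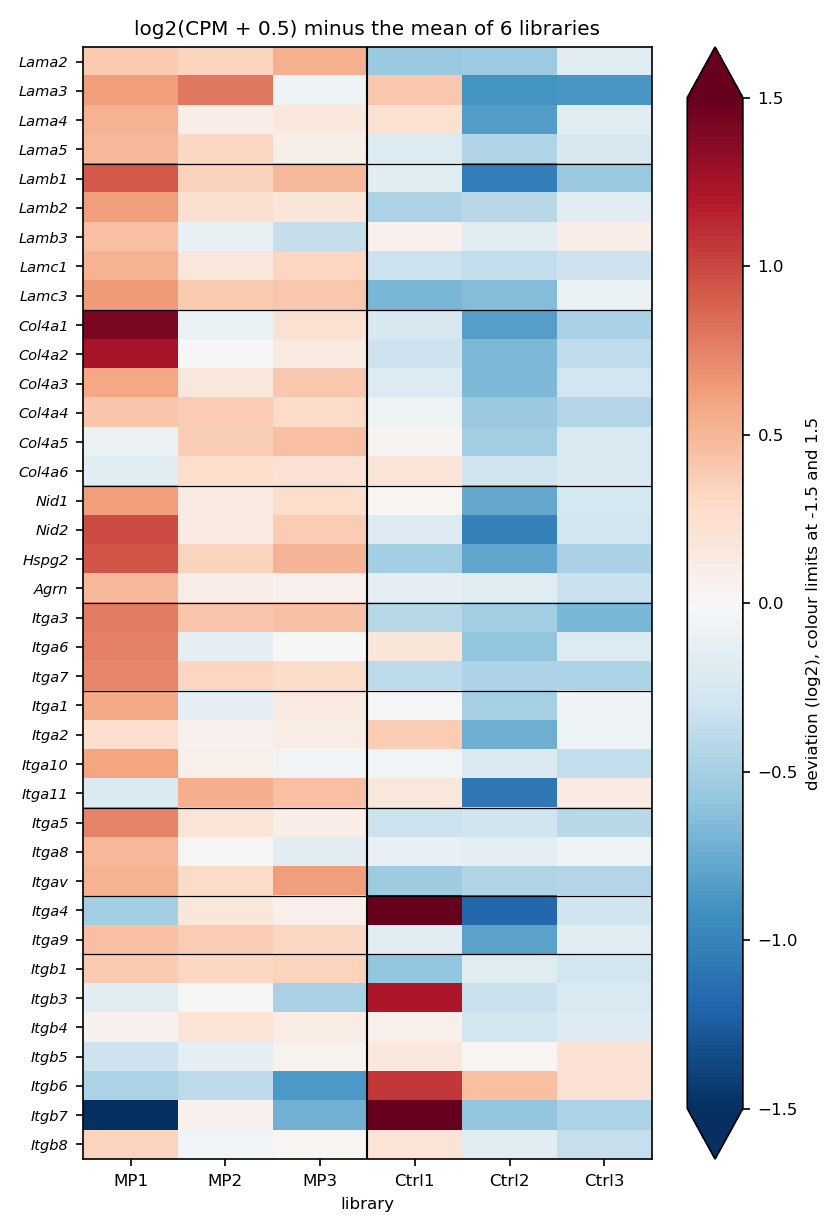
Deviation of each gene in each library from its mean over 6 libraries on the scale log2(CPM + 0.5), in genes ordered by role, with MP libraries left of the vertical line and Ctrl libraries right of it. Red is above and blue below the gene's mean; MP1 is the reddest and Ctrl2 the bluest column, and Itga4, Itgb3, Itgb6 and Itgb7 are red in Ctrl1.

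Promoter sequence was examined for the members with a RefSeq entry, which were 28 of the 39. Windows ran from 250 bases before to 50 bases after an annotated start on GRCm38.p6. A GC box (GGGCGG on either strand) was in 19 of the 32 member windows and in 35.7% of all 32851 windows. The CCAAT box was in 7 of the 32 (37.4% of all), TATAAA in 0 (13.6%), the AP-1 site TGANTCA in 2 (7.81%) and the E-box CAGCTG in 6 (16.3%), both strands counted each time. The sequences upstream of Hspg2 and of integrin genes with positive and with negative fold changes are shown in the gene's own direction, with GC boxes in capitals. They are Hspg2 (chr4:137468619-137468768, plus), Itgav (chr2:83724247-83724396, plus), Itgb1 (chr8:128685504-128685653, plus), Itgb5 (chr16:33829515-33829664, plus) and Itgb6 (chr2:60722644-60722793, minus).
Hspg2: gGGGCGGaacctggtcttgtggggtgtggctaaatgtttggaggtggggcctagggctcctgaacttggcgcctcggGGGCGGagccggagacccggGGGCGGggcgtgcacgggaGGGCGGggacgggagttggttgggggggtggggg
Itgav: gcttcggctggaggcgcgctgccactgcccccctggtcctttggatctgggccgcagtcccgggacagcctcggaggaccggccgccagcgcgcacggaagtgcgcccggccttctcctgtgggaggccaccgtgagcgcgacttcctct
Itgb1: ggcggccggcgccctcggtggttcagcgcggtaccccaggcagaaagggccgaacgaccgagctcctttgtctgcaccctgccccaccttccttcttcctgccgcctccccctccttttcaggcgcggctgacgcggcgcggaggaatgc
Itgb5: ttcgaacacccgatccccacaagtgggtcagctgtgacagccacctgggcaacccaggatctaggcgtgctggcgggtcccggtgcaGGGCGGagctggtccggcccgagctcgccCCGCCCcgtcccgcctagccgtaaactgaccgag
Itgb6: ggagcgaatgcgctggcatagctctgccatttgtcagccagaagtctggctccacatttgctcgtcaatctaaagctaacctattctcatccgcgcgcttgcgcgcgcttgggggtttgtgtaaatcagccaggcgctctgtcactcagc
Hspg2 had 4 GC boxes in the stretch shown and 5 in its whole window, and Itgb5 had 2 and 3. Itgav and Itgb1 had 0 in the stretch shown and 1 in the whole window, and Itgb6 had 0 in both.

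Genes that act with the members were taken from lists. Of all genes tested, edgeR called 0.788% higher and 0.508% lower, and DESeq2 3.59% and 2.94%. At an unadjusted p under 0.05 in edgeR these were 10.5% and 10.3%. Among 23 other basement membrane and associated matrix genes 1 rose and 0 fell in edgeR, 22 were positive, and the median was 0.58. Unadjusted, 11 were higher and 0 lower, and DESeq2 called 6 higher and 0 lower. The gene that rose in edgeR was Smoc1, a secreted calcium-binding matrix protein, with 18.7, 39.2 and 35 CPM in MP1, MP2 and MP3, and 6.34, 3.83 and 3.13 CPM in Ctrl1, Ctrl2 and Ctrl3 (2.79 ± 0.36, edgeR adjusted p = 0.0236). Among 18 matrix proteases and inhibitors 1 rose and 0 fell in edgeR, with a median of 0.46. Unadjusted, 8 were higher and 0 lower, and DESeq2 called 5 higher and 0 lower. The edgeR call was Mmp15, a membrane-anchored metalloproteinase, with 36.9, 49.1 and 47.5 CPM in the MP libraries and 23.6, 19.8 and 20.1 CPM in the Ctrl libraries (1.07 ± 0.15, adjusted p = 0.0289). The 5 lists that follow held 0 calls in edgeR. In 17 genes of collagen IV folding, crosslinking and secretion the median was 0.45, with 8 higher and 0 lower unadjusted, and DESeq2 called 4. The smallest p was that of Plod1, a lysyl hydroxylase of collagen (0.61 ± 0.13, adjusted p = 0.0757). In 25 genes of integrin adhesion machinery 16 were positive, with a median of 0.17 and 6 higher and 0 lower unadjusted. Bcar1, the adaptor p130Cas, led it (0.68 ± 0.15, adjusted p = 0.0817), and DESeq2 called 1.

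The other laminin receptor of muscle, dystroglycan, was not compared with the integrins by a test. In 13 genes of dystroglycan and its glycosylation 6 were positive, with a median of -0.05 and 1 higher and 1 lower at an unadjusted p under 0.05. DESeq2 called 1 of them higher and 0 lower. Dag1, dystroglycan itself, had 447, 399 and 439 CPM in the MP libraries and 250, 438 and 402 CPM in the Ctrl libraries, which overlapped (0.24 ± 0.21, adjusted p = 0.556). Of 14 integrin ligands outside basement membranes 12 were positive, with a median of 0.28 and 3 higher and 0 lower unadjusted, and Emilin1 led (1.27 ± 0.36, adjusted p = 0.122). Of 15 tetraspanins and integrin partners 12 were positive, with a median of 0.37 and 6 higher and 0 lower unadjusted, and Cd151, which binds laminin-binding integrins, led (0.53 ± 0.14, adjusted p = 0.103). In both lists DESeq2 called 1 gene. The 5 leukocyte and platelet integrins tested were all negative, with a median of -0.93, which was 0.29 without Ctrl1, and 0 passed in edgeR, in DESeq2 or at an unadjusted p under 0.05.

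Likeness was sought among 11167 tested protein-coding genes outside the 39, each averaging 2 CPM or more. The genes closest to Itga7 and Col4a1 over the 6 libraries were found by Pearson correlation on the scale log2(CPM + 0.5). For Itga7 they were Cyp39a1 (0.998), Ung (0.996), Bad (0.996), Cdkl3 (0.992) and Cd300lg (0.991). For Col4a1 they were Sptan1 (0.999), Samd5 (0.995), Vash1 (0.995), Slc25a24 (0.994) and Clec1a (0.993), a pattern in which MP1 is high. With 6 points that share libraries, values this high are a description of likeness.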

How the data were processed

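The labels describe 6 gastrocnemius libraries made from 3 µg of Trizol-extracted RNA with an NEBNext Ultra kit. HISAT2 2.0.5, featureCounts 1.5.0-p3 and the build GRCm38 are named in the submitters' processing notes. Strand use in counting is not given in the sources used here; values of overlapping genes are uncertain. The authors deposited whole-number counts per gene and a table of FPKM. The deposited FPKM equalled counts per deposited gene length and per a library size close to that after TMM scaling.

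The main test was edgeR 4.0.16 under R 4.3.3 (TMM, filterByExpr, quasi-likelihood), which left 14973 genes, with Benjamini-Hochberg adjustment over all of them at 0.05 and two-sided p-values. CPM use TMM library sizes, and a count of 3 is 0.12 to 0.145 CPM, which covers counting error only. Alternatives used DESeq2 1.42.0, limma 3.58.1, other scalings and filters, and fits without each library. The fit was tested on simulated counts. Per-length levels used GENCODE vM21 transcripts as an added setting. All 39 members are named, with values by library for genes past the threshold, the 2 smallest p in each role and the Col4a1 and Col4a2 pair. Lamb2, Lama3, Nid1, Itgb3, Itgb5, Itgb7, Dag1, Calcr, Fgfr4 and the ratios were given after their values were seen. Other ratios were computed, and most of them overlapped between the groups. A gene that the naming rule took from a pathway list is not reported here. The members and lists were chosen with earlier results of these data known. Replicate numbers did not pair the libraries (correlations of same-numbered deviations -0.0243, -0.168 and 0.156). Sequences are from RefSeq.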

Additional observations from a re-analysis of the deposited data

How the results depend on the processing

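The number of members past the threshold moved with the processing. It was 6 higher and 0 lower in the fit reported, and 15 and 1 with DESeq2, 11 and 1 at an adjusted p of 0.10, 3 higher with no filter on low counts, 3 higher with limma on log2(FPKM + 1), which changes test and unit together, and 0 higher with the replicate block. Leaving out 1 library at a time gave 0 to 15 members higher and 0 to 1 lower. Over all genes, 118 were higher and 76 lower in the fit reported. This became 539 and 444 with DESeq2, 205 higher with library totals alone, 40 lower with no filter, 68 and 44 with log2(FPKM + 1), 77 and 44 with log2(FPKM + 0.1), 419 and 320 at an adjusted p of 0.10, and 2 and 3 with the replicate block. Leave-one-out fits gave 0 to 910 higher and 0 to 1046 lower. With library totals alone the share of calls that were higher was 79.2% in place of 60.8%, the median of all genes was 0.12 in place of -0.03, and no member changed direction. The median of the members was 0.30 on log2(FPKM + 1), which understates low genes, and 0.64 with the replicate block, whose numbers share only a number. The cause of the other changes was not tested.

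Lamb3, near 0 throughout, was at -0.02 with limma-voom, -0.28 without MP1, -0.06 without Ctrl2, -7.6e-05 with the replicate block and -0.004 on log2(FPKM + 0.1). Without Ctrl1 Itga4 was at 0.69 and Itgb3 at 0.08, and without Ctrl2 Itga2 was at -0.03. Leaving out 1 library at a time gave -0.28 to 0.23 for Lamb3, -0.03 to 0.65 for Itga2, -1.19 to 0.69 for Itga4 and -1.0 to 0.08 for Itgb3. The stricter filter dropped Col4a6, and DESeq2 gave no p for Itgb7. Genes with few counts, such as Lama1, could not show a difference at this depth.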
